A study of Mus musculus with 12 samples.

Results

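The 10 genes described here are the immediate early genes Fos, Fosb, Jun, Junb, Egr1, Atf3 and Ier2 and the orphan nuclear receptors Nr4a1, Nr4a2 and Nr4a3. They were chosen by name as a gene family, and all 10 are among the 14159 genes in the table and among the 13404 that were tested. The study asked how the transcription factor ATF4 in adipocytes shapes the first response of inguinal white adipose tissue (iWAT) to cold. PolyA RNA from whole iWAT was sequenced in 12 mice, 3 in each of 4 groups. Control mice, called Atf4WT, are Atf4 fl/fl littermates on C57BL/6, and Atf4AKO mice carry the same floxed Atf4 together with Adipoq-Cre. Mice of both genotypes were kept at room temperature (RT) or exposed to cold for 24 h. Age and sex of these animals are not given. Adipoq-Cre deletes in adipocytes, so every other cell of the tissue keeps Atf4 in both genotypes, and the RNA of all cells was counted together.

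Immediate early genes are transcribed within minutes of a stimulus, without new protein synthesis, and their transcripts are short-lived. Fos, Fosb, Jun and Junb encode subunits of the dimeric factor AP-1, while Atf3 encodes a related basic leucine zipper protein that is also a known target of ATF4 under stress. Egr1 encodes a zinc finger factor, and Ier2 a small nuclear protein. The Nr4a genes encode nuclear receptors with no known hormone ligand, and all 3 are known targets of cAMP signalling, which noradrenaline starts in adipocytes in the cold.

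Values are the deposited normalized counts, listed for replicates 0, 1 and 2 of a group. Between genes they are compared only per kilobase of transcript. A fold change is a difference of group means on the log2 scale, tested with limma. A gene passes the DEG threshold at a change above 1.5-fold with unadjusted p < 0.05, and adjusted p-values are taken over all 13404 genes tested. A gene's groups do not overlap when every library of one lies beyond every library of the other.

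Atf4, the deleted gene, was checked first. It stood at 5669, 4670.3 and 4107 in Atf4WT at RT, and at 7644, 7511 and 5756 after cold. In Atf4AKO it stood at 1594, 1469.7 and 1639 at RT, and at 1578, 788 and 1179.8 after cold. Every Atf4AKO library lies below every Atf4WT library at the same temperature. The log2 fold change between genotypes was -1.61 at RT (adjusted p = 0.0762) and -2.60 after cold (adjusted p = 0.000644). Reads on Atf4 that remain in Atf4AKO are counted over whole tissue, and reads from other cells and reads from the floxed allele cannot be told apart here.

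The difference between genotypes after cold shares libraries with the cold response of each genotype, so their values stand side by side and are not set against each other by overlap. In Atf4WT after cold, 3 of the 10 genes passed the DEG threshold, all higher (Ier2, Nr4a2 and Nr4a3), and all 3 had adjusted p < 0.05. The same thresholds took in 10.9% and 17% of all genes in the higher direction. These 3 genes also had groups that did not overlap, as did 23.9% of all genes in that direction. In Atf4AKO after cold the higher genes were 2, Nr4a2 and Nr4a3, by both thresholds, against 8.3% and 14.8% of all genes. Both had groups that did not overlap (21.7% of all genes), and Egr1 had groups that did not overlap in the lower direction (19.9%). In the 6 cold libraries together, Nr4a2 and Nr4a3 stood above all 6 RT libraries, as did 13.3% of all genes. The counts depend on single libraries, among them replicate 1 of both cold groups. They were 4 in Atf4WT without its replicate 2 at RT or its replicate 0 after cold, and 3 in Atf4AKO without its replicate 2 at RT. Without only the cold replicate 1 library of the genotype itself they were 4 in Atf4WT and 3 in Atf4AKO. Without both of these libraries they were 7 and 3, and with a score of stromal markers as a covariate 6 and 4. The last 2 settings were added after the data were seen. Over all 13404 genes, in either direction, the DEG threshold took in 2846 in Atf4WT and 2309 in Atf4AKO, with 2682 and 1932 without these 2 libraries and 2769 and 1881 with the score.

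Between genotypes after cold, 1 gene passed the DEG threshold, Junb, lower in Atf4AKO, where 6.04% of all genes were lower by the same threshold. None of the 10 had adjusted p < 0.05 by limma, against 0.0298% of all genes, while 2 had unadjusted p < 0.05 (1571 of all genes) and edgeR and DESeq2 each gave 0 by adjusted p. Over all genes that number depends on the fit: it was 4 by limma, 3 by edgeR and 591 of 14101 by DESeq2, 189 with a replicate block and 515 without Atf4WT replicate 0 after cold, with 0 of the 10 genes in each. Ier2 was the 1 gene whose groups did not overlap, lower in Atf4AKO (7.84% of all genes). At RT, 0 of the 10 passed the DEG threshold (0.463% of all genes) and 0 had adjusted p < 0.05 (0.00746%) by limma. At RT limma gave 0 at unadjusted p < 0.05 as well (205 of all genes), and edgeR and DESeq2 gave 0 by either rule. For the difference between the 2 cold responses, Ier2 passed the DEG threshold, lower in Atf4AKO (4.17% of all genes). By adjusted p none of the 10 and 0% of all genes passed with limma, with 0 of the 10 and 64 of all genes without Atf4WT replicate 0 after cold. With all libraries, 1 of the 10 had unadjusted p < 0.05 by limma (928 of all genes). By adjusted p edgeR and DESeq2 gave 0 of the 10, with 0 and 128 of all genes.

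**Figure D1:**
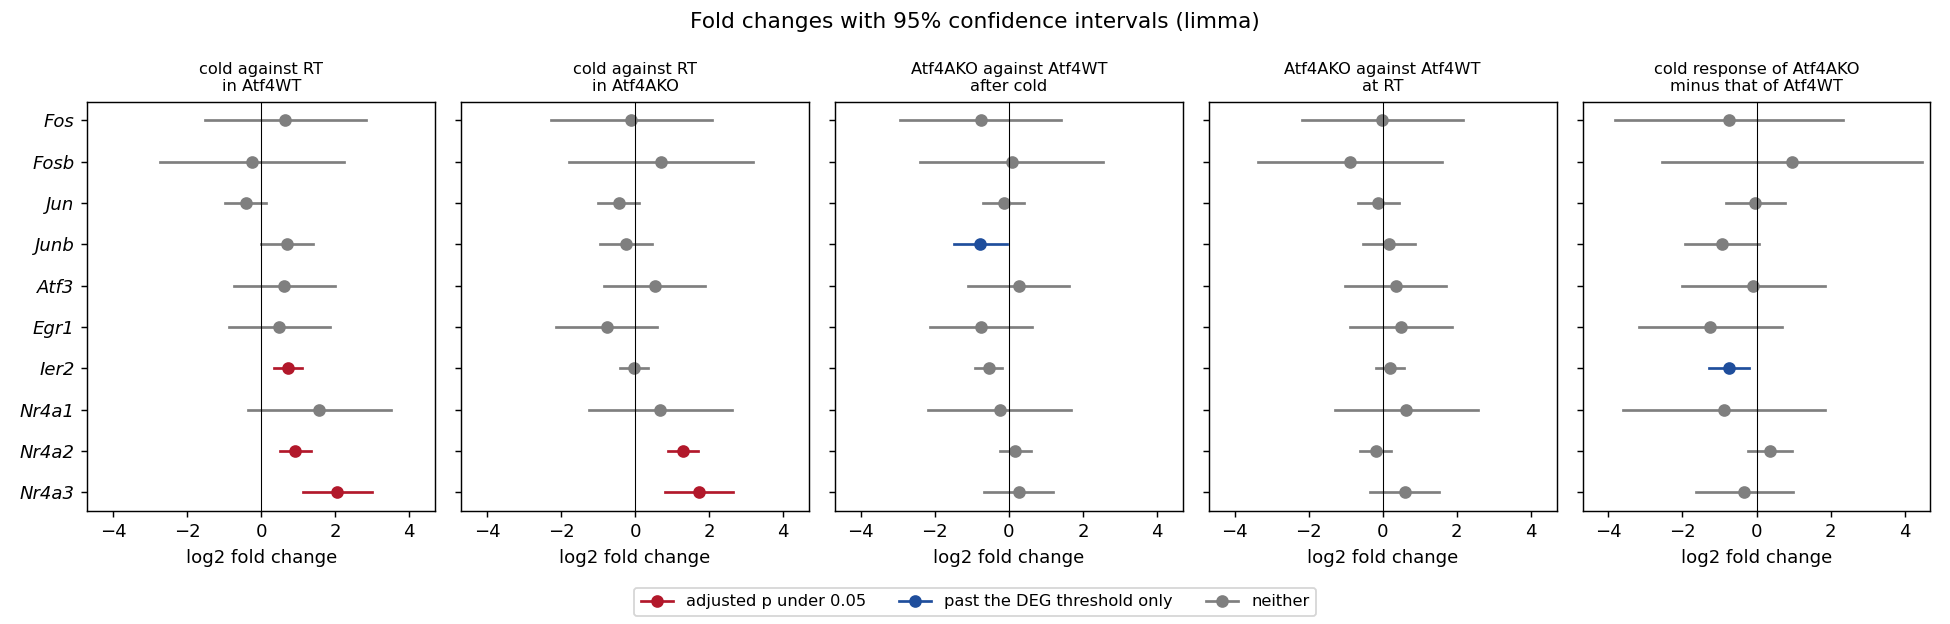
Log2 fold change of each of the 10 genes in the 5 comparisons (panels), with 95% confidence intervals as lines. Red points have adjusted p < 0.05 and blue points pass the DEG threshold only; Nr4a2 and Nr4a3 are red in both cold panels, at 0.93 and 2.06 in Atf4WT and 1.30 and 1.73 in Atf4AKO.

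Nr4a2 and Nr4a3 were higher after cold in both genotypes, and their promoters share a feature with that of Nr4a1. Nr4a1 (NM_010444) lies on the plus strand of chromosome 15 at 101254269-101274795 with 7 exons. Nr4a2 (NM_001139509) lies on the minus strand of chromosome 2 at 57106830-57124003 with 8, and Nr4a3 (NM_015743) on the plus strand of chromosome 4 at 48045153-48086447, also with 8. RefSeq promoters of 300 bases (build GRCm38.p6, the mm10 assembly), from 250 before to 50 after the start, were matched by symbol for 8 of the 10 genes. Egr1 was left out before matching, and Ier2 had no match. The letters TGACG, the half-site of the cAMP response element (CRE), read on either strand, occur at least once in 20.81% of the 32851 promoters. Each Nr4a promoter holds 4, and 76 promoters (0.23%) hold 4 or more. The 3 are shown because they carry this repeated motif, with half-sites in capitals (TGACG, or CGTCA where it lies on the other strand), at chr15:101266596-101266895 (plus strand), chr2:57123954-57124253 (minus strand) and chr4:48045055-48045354 (plus strand). The RefSeq starts of Nr4a1 and Nr4a3, and of Atf3 below, lie inside the longer gene models used for their positions, so the windows do not begin at the ends of those models.
Nr4a1: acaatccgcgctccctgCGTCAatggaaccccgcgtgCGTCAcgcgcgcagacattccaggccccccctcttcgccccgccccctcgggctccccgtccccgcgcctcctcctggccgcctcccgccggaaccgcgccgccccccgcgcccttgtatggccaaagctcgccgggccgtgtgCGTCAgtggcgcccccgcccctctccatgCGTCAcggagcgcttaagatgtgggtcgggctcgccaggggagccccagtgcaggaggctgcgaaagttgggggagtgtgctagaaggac
Nr4a2: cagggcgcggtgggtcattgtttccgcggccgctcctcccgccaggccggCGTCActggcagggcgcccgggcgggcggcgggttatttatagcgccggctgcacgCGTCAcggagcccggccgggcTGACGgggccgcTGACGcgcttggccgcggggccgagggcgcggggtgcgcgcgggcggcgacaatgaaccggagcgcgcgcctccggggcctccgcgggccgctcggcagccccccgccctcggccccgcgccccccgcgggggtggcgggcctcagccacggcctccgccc
Nr4a3: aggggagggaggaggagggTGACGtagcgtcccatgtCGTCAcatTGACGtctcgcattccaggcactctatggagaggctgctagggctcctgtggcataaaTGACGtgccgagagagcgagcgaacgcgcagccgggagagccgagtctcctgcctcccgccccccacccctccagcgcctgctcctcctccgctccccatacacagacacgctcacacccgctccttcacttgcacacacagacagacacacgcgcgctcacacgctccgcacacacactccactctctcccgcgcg

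Nr4a2, a factor best known from dopamine neurons, was even within groups. It stood at 117, 129.9 and 90.9 in Atf4WT at RT and at 101, 108 and 84.4 in Atf4AKO at RT. After cold it stood at 233, 167 and 246 in Atf4WT and at 232, 254 and 235 in Atf4AKO. The lowest cold library, Atf4WT replicate 1, lies above the highest RT library, and the genotypes overlap at RT and after cold. Group means (± SD) were 112 ± 19.9 and 97.8 ± 11.96 at RT, and 215 ± 42.5 and 240.3 ± 11.9 after cold, Atf4WT first. Nr4a2 rose 1.9-fold in Atf4WT (log2 fold change 0.93, SE 0.19, adjusted p = 0.00445) and 2.45-fold in Atf4AKO (1.30, SE 0.19, adjusted p = 0.000919). The spread was smallest in Atf4AKO after cold, where the SD was 4.97% of the mean.

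Among those of the 10 genes that passed the DEG threshold in the limma fit, Nr4a3 had the largest fold change in both genotypes. At RT it was among the lowest of the 10, at 57.0, 23.1 and 60.3 in Atf4WT and 39.0, 85.6 and 84.4 in Atf4AKO. After cold it reached 217, 125 and 226 in Atf4WT and 240.2, 162 and 273 in Atf4AKO. Replicate 1 is the lowest cold library of each genotype, yet both lie above every RT library, and the genotypes overlap at each temperature. Group means were 46.8 ± 20.6 and 69.7 ± 26.6 at RT and 189 ± 56.1 and 225 ± 56.9 after cold. Nr4a3 rose 4.17-fold in Atf4WT (log2 fold change 2.06, SE 0.423, adjusted p = 0.00445) and 3.31-fold in Atf4AKO (1.73, SE 0.423, adjusted p = 0.0127). The adjusted p was 0.143 in Atf4WT with a score of lymphocyte markers as a covariate, and 0.0528 in Atf4AKO without its replicate 0 at RT. Nr4a3 still passed the DEG threshold in both settings. Over all genes, 1866 had adjusted p < 0.05 after cold in Atf4WT with the lymphocyte score, against 4273 without it (limma). Over all alternatives its log2 fold change lay between 1.63 and 2.34 in Atf4WT and between 1.36 and 2.09 in Atf4AKO.

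For both genes the difference between genotypes after cold is held within an interval. For Nr4a2 it was 0.18 on the log2 scale (95% confidence interval -0.24 to 0.59) and for Nr4a3 0.27 (-0.66 to 1.19). With the lymphocyte score as a covariate these were -0.31 and 0.72, and without Atf4WT replicate 1 after cold the Nr4a3 value was -0.0094. The difference between the 2 cold responses was 0.37 for Nr4a2 (-0.22 to 0.96) and -0.33 for Nr4a3 (-1.65 to 0.98). Both Nr4a3 intervals hold changes of more than 1.5-fold in either direction.

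Nr4a1, the member of the trio known as a brake on inflammation in macrophages, varied far more between mice. It stood at 447, 117 and 298 in Atf4WT at RT and 453, 1018 and 128 in Atf4AKO at RT. After cold it stood at 1114, 297 and 1236 in Atf4WT and 758, 223 and 1441 in Atf4AKO. Replicate 1 is low in both cold groups and high in Atf4AKO at RT, so that RT and cold overlap in each genotype. The log2 fold change after cold was 1.56 in Atf4WT (SE 0.878, adjusted p = 0.195) and 0.68 in Atf4AKO (adjusted p = 0.597). Both intervals are wide, from -0.36 to 3.49 in Atf4WT. The Atf4WT value was 2.225 and past the DEG threshold without replicate 1 after cold, and 2.41 (adjusted p = 0.0341) with the stromal marker score as a covariate, a setting added after the data were seen. In Atf4AKO it ranged from -0.12 without replicate 2 at RT to 1.42 without replicate 1 after cold, and was 1.84 and past the DEG threshold with the stromal score.

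**Figure D2:**
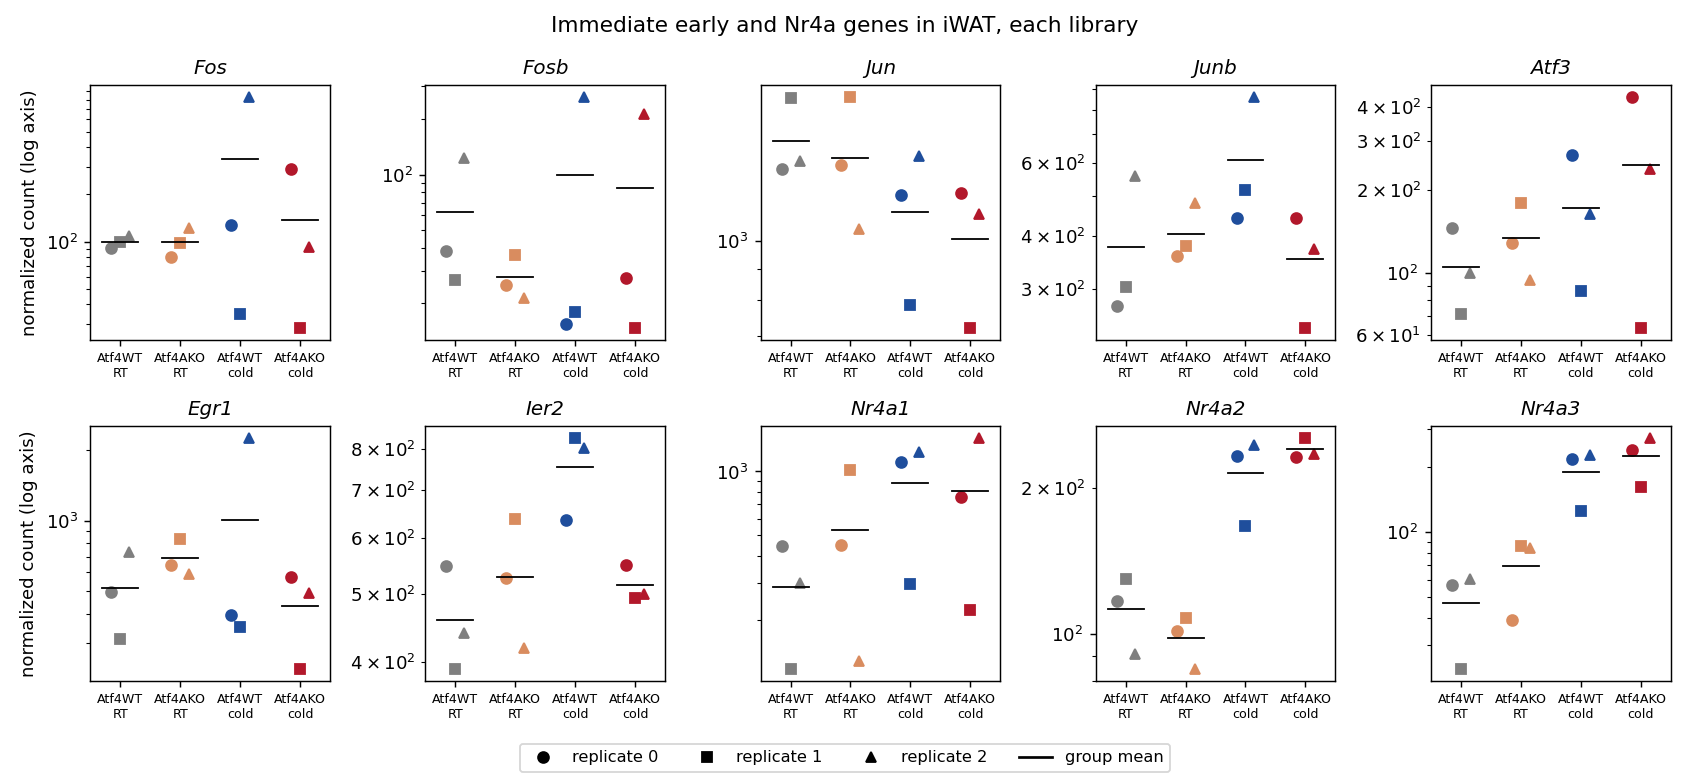
Normalized counts (log axis) of the 10 genes, 1 panel per gene, in the 4 groups, with marker shape giving the replicate and a line at each group mean. Nr4a2 and Nr4a3 separate cold from RT in both genotypes, and Fos spans 34.8 to 836 in Atf4WT after cold.

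Ier2 (NM_010499), a single-exon gene on the minus strand of chromosome 8 at 84661331-84662852, differed from Nr4a2 and Nr4a3 in that its cold response passed the DEG threshold in 1 genotype. It stood at 548, 391 and 439 in Atf4WT at RT and 635, 831 and 802 after cold. In Atf4AKO it stood at 526, 637 and 419 at RT and at 548, 492 and 499.6 after cold. All 3 Atf4WT cold libraries lie above every other library but 1, since Atf4AKO replicate 1 at RT (637) lies just above Atf4WT replicate 0 after cold (635). Ier2 rose 1.65-fold in Atf4WT (log2 fold change 0.72, SE 0.171, adjusted p = 0.0091). In Atf4AKO the value was -0.02 (95% confidence interval -0.40 to 0.36, adjusted p = 0.941). With the lymphocyte score as a covariate the adjusted p in Atf4WT was 0.162, and Ier2 still passed the DEG threshold. Over all alternatives its log2 fold change in Atf4WT lay between 0.61 and 0.86.

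After cold, Ier2 in Atf4AKO stood at 0.684 of its Atf4WT level (log2 fold change -0.55, 95% confidence interval -0.93 to -0.17). That is a change of less than 1.5-fold, with adjusted p = 0.183, and it exceeded 1.5-fold with 75th percentile scaling (-0.59) and without replicate 0 after cold of either genotype (-0.67 for Atf4WT, -0.60 for Atf4AKO). The difference between its cold responses was -0.74 (-1.27 to -0.21), past the DEG threshold with adjusted p = 0.489. With the lymphocyte marker score as a covariate that difference was -0.66 (adjusted p = 0.905), and it no longer passed the threshold.

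Junb (NM_008416), which encodes an AP-1 subunit of lower activating strength than JUN, lies on the minus strand of chromosome 8 at 84974484-84978718. It stood at 273, 303 and 556 in Atf4WT at RT and 443, 516 and 863 after cold, and in Atf4AKO at 358, 379 and 481 at RT and 443, 241 and 373 after cold. The highest Atf4AKO cold library equals the lowest Atf4WT cold library to 3 digits, and RT and cold overlap in each genotype. After cold Junb was lower in Atf4AKO at 0.588 of the Atf4WT level (log2 fold change -0.77, 95% confidence interval -1.47 to -0.06, adjusted p = 0.369). Its cold response was 0.70 in Atf4WT (adjusted p = 0.119) and -0.24 in Atf4AKO (adjusted p = 0.619). Prdx2 overlaps Junb on the opposite strand, and since the strand setting of the counting is not stated, reads of the 2 cannot be told apart. The same holds for Jun and Atf3 below.

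The Junb call between genotypes rests on few libraries. It was lost without Atf4WT replicate 2 after cold (-0.48), without Atf4AKO replicate 1 after cold (-0.52) and without Atf4AKO replicate 2 after cold (-0.83). It was lost also without both cold replicate 1 libraries (-0.60), and with the lymphocyte score as a covariate the value was 0.57, in the opposite direction. The Junb cold response in Atf4WT passed the DEG threshold without Atf4WT replicate 2 at RT (1.01) and without Atf4WT replicate 0 after cold (0.89). It passed also with a replicate block and with DESeq2. The same response was 0.41 without Atf4WT replicate 2 after cold and -0.41, in the opposite direction, with the lymphocyte score.

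Fos (NM_010234, plus strand of chromosome 12, 85473890-85477273), the partner that gives JUN its strongest DNA binding, was the most even of the 10 at RT in Atf4WT and among the least even after cold. It stood at 91.0, 99.1 and 108 in Atf4WT at RT and at 79.9, 97.6 and 122 in Atf4AKO at RT. After cold it stood at 128, 34.8 and 836 in Atf4WT and at 289, 28.3 and 92.4 in Atf4AKO. In each cold group 1 library lies well above the others and replicate 1 lies below every RT library, so that RT and cold overlap. The SD was 8.81% of the mean in Atf4WT at RT and 132% after cold, where the highest library is 24-fold above the lowest. The log2 fold change after cold was 0.65 in Atf4WT (95% confidence interval -1.53 to 2.82) and -0.10 in Atf4AKO (adjusted p = 0.646 and 0.95). On recovered reads the Atf4WT value was 1.72 with edgeR and 1.74 with DESeq2 (adjusted p = 0.195 and 0.178), and the Atf4AKO value 0.45 and 0.46. The Atf4WT value was -0.56 without replicate 2 after cold and 1.715 without replicate 1 after cold, past the DEG threshold where both cold replicate 1 libraries were left out, and the Atf4AKO value was 0.73 without replicate 1 after cold.

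Fosb (NM_008036, minus strand of chromosome 7, 19302696-19310051), whose protein pairs with JUN proteins as FOS does, has the lowest level of the AP-1 genes. It stood at 38.6, 26.9 and 122 in Atf4WT at RT and 15.4, 17.9 and 265 after cold, and in Atf4AKO at 25.1, 36.8 and 21.3 at RT and 27.6, 14.7 and 212 after cold. Replicate 2 is the highest library in 3 of the 4 groups, and all groups overlap. Its log2 fold change after cold was -0.24 in Atf4WT and 0.71 in Atf4AKO (adjusted p = 0.894 and 0.674), and with edgeR these were 0.63, in the opposite direction, and 1.62. DESeq2 gave 0.67 and 1.61 and no p for Fosb in any comparison.

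Jun (NM_010591, minus strand of chromosome 4, 95049034-95052222, 1 exon), the main DNA-binding subunit of AP-1, was highest of the 10 per kilobase at RT and passed no threshold after cold with all libraries in the limma fit. Its group means were 1462 ± 221 and 1368 ± 341 at RT and 1118.5 ± 303 and 1009.6 ± 254 after cold, Atf4WT first. Replicate 1 is the highest library in both RT groups (1716 and 1726) and the lowest in both cold groups (786 and 721). The log2 fold change after cold was -0.41 in Atf4WT and -0.44 in Atf4AKO (adjusted p = 0.233 and 0.221), and between genotypes after cold -0.14 (adjusted p = 0.87). Without Atf4AKO replicate 2 at RT the Atf4AKO value was -0.62 (adjusted p = 0.127), past the DEG threshold. The antisense transcript Junos overlaps Jun, whose reads would fall under the same doubt as those of Junb.

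Atf3 (NM_007498, minus strand of chromosome 1, 191170296-191218039) is the member most closely tied to ATF4 in the stress response. It stood at 146, 71.2 and 100.1 in Atf4WT at RT and 128, 179 and 94.6 in Atf4AKO at RT. After cold it stood at 268, 86.6 and 164 in Atf4WT and 436, 63.5 and 239 in Atf4AKO, with replicate 0 high and replicate 1 low in both. Groups overlap in every comparison, and Gm24748 lies within the gene on the opposite strand. The difference between genotypes was 0.35 at RT (95% confidence interval -1.02 to 1.72) and 0.27 after cold (-1.10 to 1.63, adjusted p = 0.905 after cold). Both intervals hold changes of more than 1.5-fold in either direction. The value after cold was -0.34 without Atf4AKO replicate 0 and 1.04 without Atf4AKO replicate 1. Its cold response was 0.62 in Atf4WT and 0.53 in Atf4AKO (adjusted p = 0.475 and 0.556). With the stromal marker score as a covariate these were 1.37 and 1.57 (adjusted p = 0.0279 and 0.0311). Without both cold replicate 1 libraries, also added after the data were seen, they were 1.04 and 1.31, past the DEG threshold, and the Atf4AKO value was 1.31 and past it also without its cold replicate 1 alone.

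Egr1 (NM_007913), a growth factor and stress responder, stood at 497, 312 and 732 in Atf4WT at RT and 394, 349 and 2263 after cold. In Atf4AKO it stood at 645, 836 and 593 at RT and 574, 231 and 488 after cold. Every Atf4AKO cold library lies below every Atf4AKO RT library, by a narrow margin between 574 and 593. The log2 fold change was -0.77 (95% confidence interval -2.14 to 0.60, adjusted p = 0.388), with -0.089 under the stromal score and -0.37 without Atf4AKO replicate 1 after cold. In Atf4WT it was 0.49 (adjusted p = 0.58), with 0.94 by edgeR, 0.96 by DESeq2 and -0.38 without replicate 2 after cold. The genotype difference after cold was -0.75 (adjusted p = 0.683), and 0.11 without the same library.

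At RT the genotypes differed in none of the 10 by any threshold. The log2 fold changes were -0.01 for Fos, -0.88 for Fosb, -0.12 for Jun, 0.17 for Junb, 0.35 for Atf3, 0.50 for Egr1, 0.19 for Ier2, 0.64 for Nr4a1, -0.19 for Nr4a2 and 0.60 for Nr4a3. Their median was 0.18, against 0.00563 for all genes tested. The Fosb value was -1.32 without Atf4WT replicate 1 and -0.25 without Atf4WT replicate 2. The Nr4a1 value was -0.054 without Atf4AKO replicate 1 and 1.44 without Atf4AKO replicate 2, and the Nr4a3 value was 0.97 and past the DEG threshold when Atf4AKO replicate 0 at RT was left out. The median of the 10 after cold was 0.673 in Atf4WT and 0.256 in Atf4AKO, against 0.00257 and -0.032 for all genes. For the genotype difference after cold it was -0.195 (all genes 0.0464), and for the difference of responses -0.537 (all genes 0.0348).

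Per kilobase of transcript, the family spans a wide range. In Atf4WT at RT the order of group means was Jun 458, Ier2 302, Junb 209, Egr1 169, Nr4a1 116, Atf3 53.3, Fos 47.2, Nr4a2 32.9, Fosb 16.6 and Nr4a3 8.18. In 7 of the 9 neighbouring pairs of that order libraries overlap, the exceptions being Jun with Ier2 and Fos with Nr4a2. After cold in Atf4WT the top of the order was Ier2 497, Nr4a1 356, Jun 351, Junb 336 and Egr1 330.1, and 8 of 9 neighbouring pairs overlap. Nr4a3 passed from the last place at 8.18 to 33.1, above Fosb at 26.3. In Atf4AKO after cold Ier2 (337), Nr4a1 (326) and Jun (317) led, Nr4a2 (70.2) stood above Fos (64.8), and all 9 neighbouring pairs overlap.

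Several of the 10 moved with markers of cells other than adipocytes. Whole tissue was sequenced, so fewer cells of a type and less RNA per cell cannot be told apart. Of 6 B cell markers 5 are listed (not Fcer2a), with Cd79a the most abundant, and their summed level was 89.1, 68.3 and 2842 in Atf4WT at RT and 2916, 5974 and 9812 after cold. In Atf4AKO it was 374.6, 63.7 and 141.9 at RT and 261.5, 52.2 and 62.3 after cold. All 6 T cell markers are listed, with Lck the most abundant, at 182, 132 and 533, then 665, 4050 and 5112 in Atf4WT, and 255, 230 and 625, then 324, 138 and 156 in Atf4AKO. All 3 Atf4WT cold libraries lie above every other library for both lists, with Atf4WT replicate 2 at RT the next highest for B cell markers.

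Junb followed these lymphocyte markers. Across the 12 libraries, as deviations from group means, its correlation was 0.785 with the T cell and 0.736 with the B cell marker score, and -0.835 with the adipocyte score. All points share the normalization of their library, and each group has 3. The same values for Ier2 and Nr4a2 with the T cell score were 0.169 and -0.612. Over the 12 raw values Ier2 had 0.719 with the T cell and 0.63 with the B cell score, and Nr4a2 0.158 and 0.172. All 3 Atf4WT cold libraries stand highest for both lymphocyte lists, so a fit cannot fully tell the lymphocyte score and that group apart. With the lymphocyte score as a covariate the cold response in Atf4WT was -0.74 for Fos, -2.29 for Fosb, -0.41 for Junb and -0.96 for Egr1. The part of the lymphocyte markers in these results and in that of Ier2 was not tested. In Atf4WT after cold, 5 of 5 B cell and 6 of 6 T cell markers were higher with adjusted p < 0.05. Between the cold groups, 5 of 5 B cell and 6 of 6 T cell markers passed the DEG threshold between genotypes, lower in Atf4AKO, with 0 at adjusted p < 0.05 by limma.

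Replicate 1 of both cold groups stands apart in stromal markers. Of 6 macrophage markers 5 are listed (not Cd68), with Lyz2 the most abundant, and their sum was 23610, 19030 and 25670 in Atf4WT at RT and 24200, 11390 and 28710 after cold. In Atf4AKO it was 33070, 18210 and 22650 at RT and 23380, 3711 and 21290 after cold. The 5 fibroblast and progenitor markers, all listed and led by Dcn, gave 50950, 43880 and 54070, then 34110, 13020 and 27410 in Atf4WT, and 64270, 43090 and 49960, then 29160, 10120 and 33100 in Atf4AKO. Replicate 1 after cold is the lowest library of its genotype in both lists. Those libraries are also the lowest of their cold group for Nr4a1, Nr4a3, Atf3, Fos, Egr1 and Jun.

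Correlations with marker scores were taken for the 10 genes and not set against those of all genes. Of the 10, Atf3 followed the stromal markers most closely, with a correlation of deviations of 0.82 with the macrophage and 0.824 with the fibroblast score over the 12 libraries. For Fos and the macrophage score it was 0.729, for Nr4a1 0.645 for Jun 0.65, and for Nr4a3 and the fibroblast score 0.447. Fosb (0.838), Egr1 (0.711), Junb (0.668) and Fos (0.616) followed neutrophil markers, of which 2 of 4 are listed (not Csf3r and Retnlg), led by S100a8. Their sum was 11.03, 27.9 and 46.4 in Atf4WT at RT, 38.0, 16.9 and 124 after cold, and in Atf4AKO 51.1, 19.9 and 23.2 at RT and 20.2, 10.2 and 51.6 after cold. The neutrophil markers have few reads, as few as 2 for a gene in a library. Atf4WT replicate 2 after cold is the highest library for their sum and for Fosb, Egr1, Junb and Fos. The part of the stromal and neutrophil markers in the result for Atf3, Fos, Fosb, Junb, Egr1 and Nr4a1 was not tested.

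Atf3 (0.762), Nr4a1 (0.707) and Jun (0.701) also followed mast cell markers, 4 of 4 listed and led by Kit over all libraries. At RT Mcpt4 was higher (group means 540.7 and 557.2, against 399.9 and 340.9 for Kit, Atf4WT first). The sum of the 4 markers was 1558, 1776 and 1705 in Atf4WT at RT and 1443, 766 and 1062 after cold. In Atf4AKO it was 2144, 1588 and 1157 at RT and 816, 594 and 1103 after cold. Replicate 1 after cold is the lowest library of its genotype here, as it is for macrophage and fibroblast markers. The part of the mast cell markers in the results was not tested. The 6 adipocyte markers of the labelled tissue are all listed and led by Fabp4, and their sum lay between 530700 and 925600 in every library. Muscle markers (3 of 5 listed, led by Acta1, not Ckm and Myh4) reached 62510 in Atf4WT replicate 2 at RT and 22460 in Atf4WT replicate 0 after cold, and their part in the results was not tested. Endothelium markers (5 of 5 listed) summed to between 14500 and 20340. Pecam1 led them over all libraries, while Cdh5 had higher group means at RT and Kdr after cold. Of 3 erythroid markers Alas2 alone is listed, at 203 to 449. Epithelium markers were 0 of 4 listed (Krt8, Krt18, Krt14 and Epcam).

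**Figure D3:**
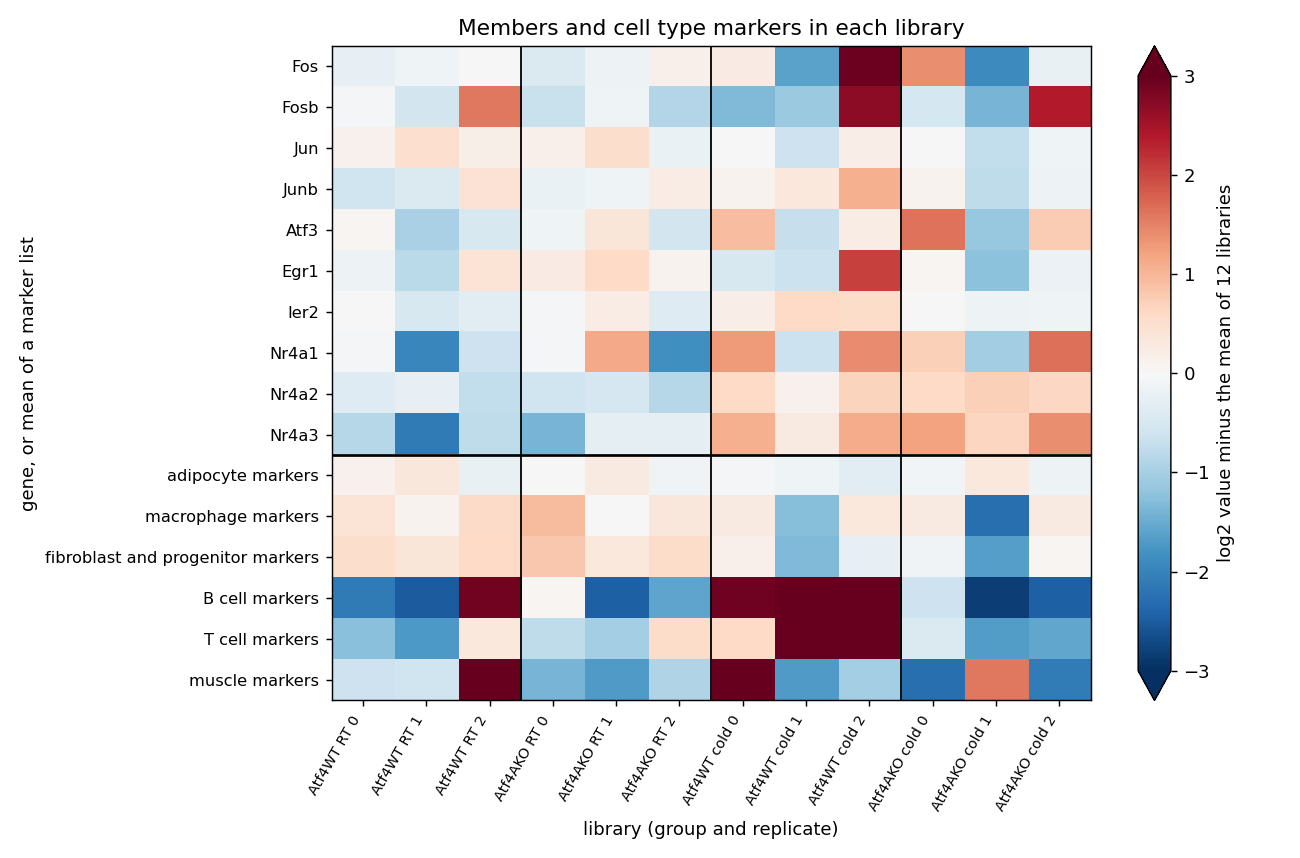
Log2 value minus its mean over the 12 libraries (colour, columns are libraries by group) for the 10 genes and 6 marker scores. Both cold replicate 1 columns are low for macrophage and fibroblast scores and for Fos, Atf3 and Nr4a1, and the B and T cell scores are high in the 3 Atf4WT cold columns.

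Nr4a2 and Nr4a3 rose in both genotypes beside a part of the cAMP-responsive genes of adipocytes. Over all 13404 genes, 1459 were higher and 1387 lower by the DEG threshold in Atf4WT after cold, and 1113 higher and 1196 lower in Atf4AKO, and the lists below stand beside these. Of 15 cAMP-responsive genes tested, 7 were higher and 1 lower by the DEG threshold in Atf4WT (median log2 fold change 0.715) and 8 higher and 1 lower in Atf4AKO (0.869). The lower gene was Adrb3 in both (-1.04 and -0.76), and the others of the 15 passed the threshold in neither direction. Ucp1, the uncoupling protein of thermogenic fat, rose by 7.67 and 7.51, and Dio2, which activates thyroid hormone, by 5.88 and 5.999. Ppargc1a, the coactivator of mitochondrial genes, rose by 2.01 and 2.57, beside 2.06 and 1.73 for Nr4a3. Of the 15, 0 were higher and 1 was lower in Atf4AKO than in Atf4WT after cold, Pde4b (-0.93). In that comparison 48 of all 13404 genes were higher and 810 (6.04%) lower by the same threshold. Several listed genes are shared between the lists given here, such as Gadd45g, Fgf21 and Ppp1r15a.

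The wider set of immediate early genes was read in the same way. Of 42 tested (the all-gene shares are 10.9% higher in Atf4WT and 8.3% in Atf4AKO), 12 were higher and 2 lower after cold in Atf4WT (median 0.232), and 5 higher and 1 lower in Atf4AKO (median -0.00628). Gadd45g, a growth arrest gene, rose by 1.76 and 1.69 (adjusted p = 0.000647 and 0.000962), Nfil3 by 1.00 and 1.27, and Cebpb by 0.95 and 0.79. Dusp2, a phosphatase of MAP kinases that is abundant in lymphocytes, rose by 3.06 in Atf4WT (adjusted p = 0.00452), with 0.20 in Atf4AKO. Egr3 and Arc passed the DEG threshold in Atf4WT at 1.79 and 1.71, with 0.36 and 0.39 in Atf4AKO. Ccn2 and Trib1 passed it in Atf4AKO at 0.93 and 0.62 (adjusted p = 0.107 and 0.0271), with 0.079 and 0.57 in Atf4WT. In Atf4AKO after cold 6 of the 42 were lower than in Atf4WT (810 of all 13404 genes) by the DEG threshold, with 0 by adjusted p in limma. They were Dusp2 (-3.13), Egr3 (-1.80), Dusp5 (-1.37), Gadd45b (-1.32), Socs3 (-1.22) and Ier5 (-1.16). By the same threshold 5 of 5 B cell and 6 of 6 T cell markers were higher in Atf4WT after cold. All of these markers were also lower in Atf4AKO than in Atf4WT after cold (medians -5.85 and -3.65). Their part in the results of the wider set was not tested.

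Lists of genes that regulate or partner the family are given against the same shares of all genes, 10.9% higher in Atf4WT and 8.3% in Atf4AKO. Of 23 upstream regulators tested, 1 was higher in Atf4WT after cold (Rps6ka1, a kinase downstream of ERK, 0.85) and 1 in Atf4AKO (Atf2, a CRE-binding factor, 0.60). Of 12 AP-1 partners tested, 0 passed the DEG threshold in Atf4WT and 2 were higher in Atf4AKO, Mafg (0.87) and again Atf2. Between genotypes after cold 1 of the 23 (Rps6ka1, -0.65) and 1 of the 12 (Batf, -1.67) were lower (adjusted p = 0.269 and 0.203), against 6.04% of all genes. The same 2 genes were lower for the difference of responses (-0.73 and -2.11, adjusted p = 0.715 and 0.558), against 4.17% of all genes. Of 12 heat shock genes, 2 were higher and 1 lower in each genotype, with Hspa8 at 1.07 and 1.11 and Cryab at -1.87 and -1.34. Of 16 integrated stress response genes, which hold Atf3's known company, 6 were higher and 2 lower in Atf4WT and 4 higher and 1 lower in Atf4AKO. Of the 16, 3 were lower in Atf4AKO than in Atf4WT after cold (6.04% of all genes), namely Trib3 (-0.82), Atf5 and the deleted gene Atf4 itself. Atf5, a target of ATF4, had -0.97 (adjusted p = 0.0156). The median of the 16 in that comparison was -0.0948, with Ddit3 at -0.068 and Asns at -0.049, neither past the DEG threshold. Atf3 had 0.27, with a confidence interval from -1.10 to 1.63, so its value is not set apart from most of this list.

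Within the family, some genes moved together from mouse to mouse. Over the 12 libraries, as deviations from group means, Fos correlated with Egr1 at 0.851, Fosb with Egr1 at 0.847, Junb with Egr1 at 0.785 and Atf3 with Nr4a1 at 0.783. Nr4a2 and Nr4a3 had 0.79 over the 12 raw values and -0.124 as deviations, so their likeness lies between groups and not within them. The points of each correlation share a library and its normalization.

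Among 11832 genes with enough counts, the profile of Nr4a1 over the 12 libraries was closest to that of Sik1, a kinase gene that cAMP induces (r = 0.908, 0.811 without the 2 farthest libraries), Etv3 (0.886) and Spry4 (0.881). The profile of Atf3 came closest to Gpnmb (0.929), Atp6v0d2 (0.916) and Slc37a2 (0.9), genes of lysosome-rich macrophages, with 0.873 for Gpnmb without the 2 farthest libraries. Fos and Egr1 were both close to Zfp709 (0.918 and 0.873) over all libraries, with 0.688 and 0.468 without the 2 farthest. By rank correlation, 0 of the 3 nearest genes stay the nearest 3 for Fos and for Egr1, and 1 of 3 for Atf3 (Gpnmb) and for Nr4a1 (Sik1). The median r over all genes was 0.0381 for Nr4a1, 0.0258 for Atf3, -0.0373 for Fos and -0.0665 for Egr1.

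In the promoters, the CRE half-site of the Nr4a genes printed above is present in 7 of the 8 members matched, all but Jun. Fos holds 2 (5.01% of promoters hold at least 2), and Atf3, Fosb and Junb hold 1 each. In Nr4a1 the first bases lie at -233, -213, -69 and -40 from the start, in Nr4a2 at -200, -144, -123 and -111, and in Nr4a3 at -231, -213, -205 and -147. The full site TGACGTCA, which contains the half-site on both strands, was in 0 of the 8 (1.79% of promoters), as were the AP-1 site TGAGTCA (5.2%), the NR4A monomer site AAAGGTCA (1.51%) and, by name, the serum response CArG box (1.63%). The C/EBP-ATF letters TGATGNAAN were in Atf3, 1 match at -111 (3.95%), counted from a RefSeq start that lies well inside the gene model given for Atf3. TATAAA, read on the gene's strand, was in Fos at -33 and in Junb at 0, the first base after the start (8.32%). The RefSeq start of Junb lies before the start of the gene model given for Junb, and so does this match. All other motifs were read on both strands, and a match describes letters in the window. Egr1 was left out before matching, so the motifs of its promoter were not read, and Ier2 was not matched.

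**Figure D4:**
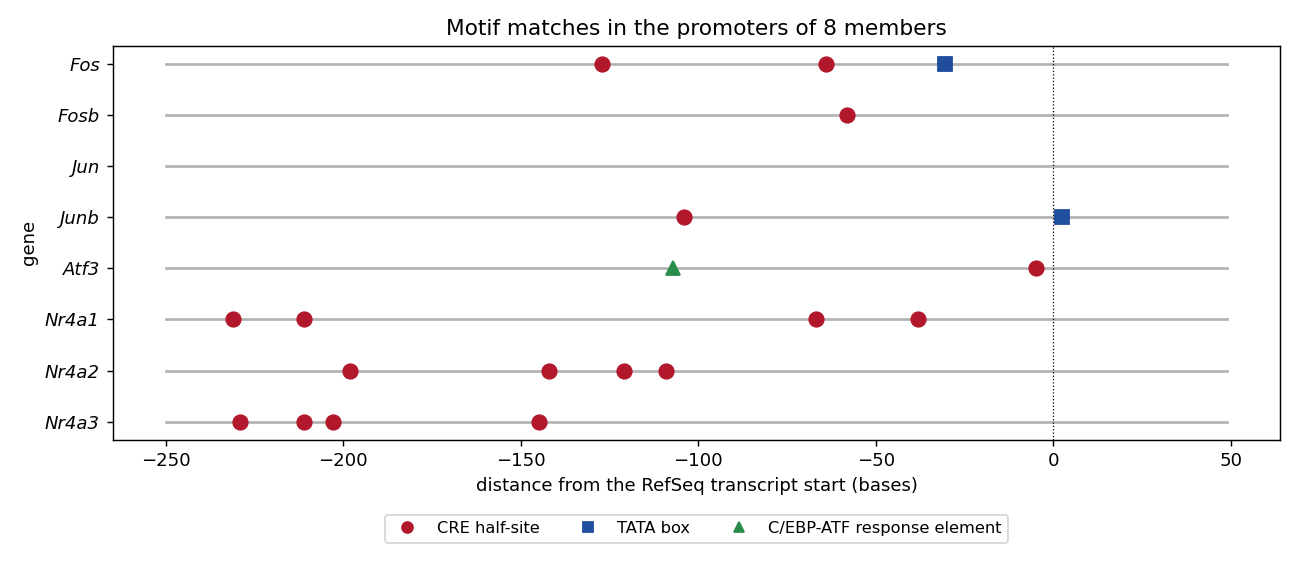
Motif matches (CRE half-site, TATA and C/EBP-ATF) against distance in bases from the RefSeq start for the 8 promoters matched. The Nr4a genes carry 4 CRE half-sites each, and Jun carries 0.

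Together, Nr4a2 and Nr4a3 were higher 24 h into cold in Atf4WT and in Atf4AKO, while Ier2 was higher in Atf4WT (adjusted p = 0.0091). Under the lymphocyte score the adjusted p of Ier2 was 0.162, and it still passed the DEG threshold. Its log2 fold change in Atf4WT lay between 0.61 and 0.86 in all alternatives. The difference between the 2 cold responses of Ier2 (-0.74) had adjusted p = 0.489. Under the lymphocyte score it was -0.66, still more than 1.5-fold, and fell short of the DEG threshold. In Fos, Fosb, Egr1, Atf3 and Nr4a1 the mice of a cold group spread widely, and with all libraries in the limma fit none of these passed the DEG threshold in any comparison, while Nr4a1, Atf3 and Fos did under settings given above. At 1 time point, and with 3 mice a group, an earlier rise and fall of these transcripts was not measured.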

How the data were processed

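RNA-seq of polyA-selected iWAT RNA was read from 1 deposited table of 12 libraries (strand-specific DNBSEQ). The authors used SOAPnuke for trimming, STAR for alignment (mm10) and featureCounts for counts of reads with 1 alignment; versions and the strand setting are not stated. The unit of the deposited values is signal: counts the authors scaled by DESeq2 size factors in pyDESeq2. Whole reads were recovered by script, and 100% of values lay within 0.01 reads of a whole number (largest deviation 0.000313). Depth was 25719476 to 29105147 reads per library. All columns were used.

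Log2(value + 1) was fitted with 4 group means in limma 3.58.1 with eBayes trend, for genes with a mean of at least 10 (755 fell under it). Recovered reads were tested with edgeR 4.0.16 (quasi-likelihood) and DESeq2 1.42.0 (Wald; no p for Fosb). R 4.3.3, Python 3.11.15, numpy 2.4.6, pandas 2.3.3 and matplotlib 3.10.9 were used, and scripts were tested on simulated data. In the counts of gene lists, genes other than the 10 are named only where they passed a threshold in at least 1 comparison, and not all of those are named. Marker genes are named as the most abundant of a list over all libraries, as its only listed gene, or as not listed. Alternatives were pseudocounts 0.5 and 5, no filter, a filter at 50, only the groups compared, 75th percentile scaling, a replicate block, a lymphocyte score (mean log2 of B and T cell markers) as covariate, an adjusted p threshold, edgeR, DESeq2 and each library left out. Chosen after seeing the data were a stromal score (macrophage and fibroblast markers) as covariate and leaving out both cold replicate 1 libraries. The 10 genes and the lists were chosen with earlier results of these data known.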

Additional observations from a re-analysis of the deposited data

Results flagged for a closer look

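For 1 of the 10 genes and 4 of 42 other immediate early genes the response to cold differed between Atf4WT and Atf4AKO past the DEG threshold in the test of the difference itself, and for none of them was the adjusted p under 0.05. All were lower in Atf4AKO, as were 559 of all 13404 genes (4.17%) by the same threshold. Ier2 had a difference of -0.7421 (adjusted p = 0.489), and -0.66 with the lymphocyte score as a covariate, short of the threshold. Dusp2 had -2.863 (adjusted p = 0.481), Dusp5 -1.945 (0.706), Socs3 -1.385 (0.692) and Ier5 -1.238 (0.558). In the same comparison 5 of 5 B cell and 6 of 6 T cell markers were lower by the threshold (medians -5.21 and -4.26), and their part in these results was not tested. Groups of 3 were not tested for libraries that stand apart.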

How the results depend on the processing

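Of 990 settings of the 50 fold changes of the 10 genes, 877 kept the direction and the side of the DEG threshold, 7 fell short of it, 25 passed it anew and 81 reversed in direction. Of the reversed ones 1 concerned a value past the DEG threshold, that of Junb between genotypes after cold. The cause was not tested for any result given here as changed.

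Nr4a2 and Nr4a3 passed the DEG threshold after cold in both genotypes under all 19 alternatives. Nr4a2 ranged from 0.78 to 1.33 in Atf4WT (adjusted p 6.55e-05 to 0.025) and from 1.19 to 1.37 in Atf4AKO (2.35e-08 to 0.00495). Nr4a3 ranged from 1.63 to 2.34 in Atf4WT (1.35e-05 to 0.143, highest with the lymphocyte score) and from 1.36 to 2.09 in Atf4AKO (0.000315 to 0.0528, highest without Atf4AKO replicate 0 at RT). Ier2 in Atf4WT ranged from 0.61 to 0.86 (0.000761 to 0.162, highest with the lymphocyte score).

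Counts of the 10 genes past the DEG threshold changed as follows. After cold in Atf4WT there were 3, but 6 with the stromal score (adding Atf3 at 1.37, Junb at 0.92 and Nr4a1 at 2.41), 7 without both cold replicate 1 libraries (adding Atf3, Fos, Junb and Nr4a1) 4 with DESeq2 or the replicate block (adding Junb), and 3 to 4 with single libraries left out. After cold in Atf4AKO there were 2, but 4 with the stromal score (adding Atf3 at 1.57 and Nr4a1 at 1.84) 3 without both cold replicate 1 libraries (adding Atf3 at 1.31), and 2 to 3 with single libraries left out. It was 3 without Atf4AKO replicate 2 at RT (adding Jun, lower, at -0.62) and without Atf4AKO replicate 1 after cold (adding Atf3 at 1.31). Between genotypes after cold the count was 1, but 0 by adjusted p, 2 with 75th percentile scaling (adding Ier2 at -0.59), 0 with the lymphocyte score, 0 without both cold replicate 1 libraries, and 0 to 2 with single libraries left out. It was 2 without Atf4WT replicate 0 after cold (Ier2 -0.67) or Atf4AKO replicate 0 after cold (Ier2 -0.60). At RT the count was 0, and 0 to 1 with single libraries left out. For the difference of responses it was 1, but 0 by adjusted p, 2 with the replicate block, 0 with the lymphocyte score, and 1 to 2 with single libraries left out (Junb at -1.25, -1.13 and -1.12).

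A replicate block was fitted as an alternative, though the labels do not say that replicate numbers pair mice across groups. Correlations between libraries of 2 groups, as deviations from group means, ran from -0.189 to 0.389 for the 18 pairs of the same number and from -0.475 to 0.312 for the others. Replicate 1 was positive in all 6 pairs of groups (0.317, 0.202, 0.179, 0.2, 0.304 and 0.389). Replicates 0 and 2 had values of both signs, and what replicate 1 libraries share was not tested. With the block 189 of all genes had adjusted p < 0.05 between genotypes after cold, and the counts of the 10 genes were 4 (adding Junb, adjusted p = 0.0417), 2, 1, 0 and 2 (adding Junb).

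With the lymphocyte score as a covariate these values reversed. After cold in Atf4WT they were Fos -0.74, Junb -0.41 and Egr1 -0.96, and in Atf4AKO Fos 0.16. Between genotypes after cold they were Fos 0.92, Junb 0.57, Egr1 0.99 and Nr4a2 -0.31, and at RT Fos 0.014. For the difference of responses they were Fos 0.91, Junb 0.38, Egr1 0.46, Nr4a2 -0.11 and Nr4a3 0.12. Values that kept their direction but moved by more than 1.5-fold with this score were Fosb in Atf4WT (-2.29), between genotypes after cold (2.55) and for the difference of responses (3.38).

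With the stromal score Fos in Atf4WT (1.685), Fosb in Atf4AKO (1.85) and Egr1 in Atf4AKO (-0.089) kept their direction and moved by more than 1.5-fold. With the same score, Fosb was 0.59 in Atf4WT after cold, Fos 1.33 and Junb 0.063 in Atf4AKO, and for the difference of responses Jun was 0.063 and Atf3 0.20. Without both cold replicate 1 libraries, Fosb was 0.36 in Atf4WT, Fos 0.73, Junb 0.014 and Ier2 0.0096 in Atf4AKO, Nr4a2 -0.036 between genotypes after cold, and Atf3 0.27 for the difference of responses.

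With edgeR, Fosb was 0.63 in Atf4WT, Fos 0.45 in Atf4AKO, Fosb -0.22 between genotypes after cold and Atf3 0.19 for the difference of responses. In Fos after cold in Atf4WT edgeR gave 1.72 and DESeq2 1.74, and in Fosb in Atf4AKO 1.62 and 1.61, against 0.65 and 0.71 in limma. With DESeq2 the values of the reversed results were 0.67, 0.46, -0.23 and 0.17, and Fos at RT was 0.0024.

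With single libraries left out, these values crossed 0, given from lowest to highest. After cold in Atf4WT: Fos -0.56 to 1.72, Fosb -1.546 to 0.46 and Egr1 -0.38 to 0.96. After cold in Atf4AKO: Fos -0.92 to 0.73, Fosb -0.40 to 1.48, Junb -0.42 to 0.014, Atf3 -0.072 to 1.31, Ier2 -0.175 to 0.13 and Nr4a1 -0.12 to 1.42. Between genotypes after cold: Fos -1.83 to 0.44, Fosb -1.04 to 1.38, Jun -0.38 to 0.083, Atf3 -0.34 to 1.04, Egr1 -1.23 to 0.11, Nr4a1 -0.91 to 0.49 and Nr4a3 -0.0094 to 0.48. At RT: Fos -0.17 to 0.13, Jun -0.30 to 0.063, Junb -0.029 to 0.48 and Nr4a1 -0.054 to 1.44. For the difference of responses: Fos -1.81 to 0.46, Fosb -0.16 to 2.25, Jun -0.26 to 0.198, Atf3 -0.69 to 0.69 and Nr4a3 -0.70 to 0.10.

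By rank correlation, of the 3 genes nearest to Fos, Egr1, Atf3 and Nr4a1, 0, 0, 1 and 1 stayed among the nearest 3.

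Over all genes, 858 passed the DEG threshold between genotypes after cold and 220 with the lymphocyte score, and 621 for the difference of responses, with 336 under the lymphocyte score and 398 without both cold replicate 1 libraries. Groups hold 3 mice of 1 time point, whole tissue was counted, and replicate 1 of both cold groups has few stromal reads. Fosb rests on 13 to 281 reads a library. Age, sex and any batch are not given.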
